A study of Mus musculus with 6 samples.

Results

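The collagen and laminin genes are the 52 gene entries of the deposited expression table whose symbols name a collagen alpha chain (41 genes) or a laminin alpha, beta or gamma chain (11 genes). They were picked by symbol alone, out of 24453 gene entries: 55 symbols fitted the pattern, and *Col1a1*, *Col1a2* and *Col3a1* were left out. The genes left out are fibrillar collagens too, so the fibrillar counts and sums below do not include them. Visual cortex was taken at postnatal day 14 from males of the C57BL/6J strain perfused with PFA, the fixative paraformaldehyde, giving 3 libraries from *Chrdl1* knockout (KO) mice and 3 from wild type (WT) mice. The *Chrdl1* product is a secreted protein of the chordin family that binds bone morphogenetic proteins and blocks their signalling. The labels do not say how the knockout was made, nor whether each library is a separate animal, so every p-value here measures the spread between libraries. Messenger RNA was sequenced with a stranded kit, and values are FPKM, read counts scaled to gene length and library depth. Each sample title carries a number from 1 to 3 that occurs once in KO and once in WT. The labels do not explain this number, and it is used below only to name libraries and to compare KO with WT within a number.

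Collagens are triple helices of 3 alpha chains. Fibrillar collagens assemble into the ropes of connective tissue, and in brain they are found mainly in the meninges and around larger vessels. Type IV collagen forms a sheet-like network, and laminins, each a trimer of an alpha, a beta and a gamma chain, form a second network beside it. Nidogens and the heparan sulphate proteoglycan perlecan connect these networks into the basement membrane that wraps brain capillaries and lies beneath the pia. Other collagens decorate fibrils (the FACIT group), form beaded or anchoring filaments, or span the plasma membrane of neurons and other cells.

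Depth was 22.7 to 38.2 M reads per library. *Chrdl1* stood at 3.65, 3.57 and 3.09 FPKM in WT libraries 1, 2 and 3 and at 0.172, 0.190 and 0.120 FPKM in KO libraries 1, 2 and 3, so the libraries separated as labelled (log2 fold change -1.93 ± 0.09 SE, limma adjusted p = 0.000489; exact permutation p = 0.1, the smallest that 3 against 3 libraries can give). Without the libraries numbered 1, or those numbered 2, the limma adjusted p of *Chrdl1* was 0.244 or 0.0906. Cortical excitatory neuron markers (10 genes) summed to 719 to 844 FPKM per library and astrocyte markers (12 genes) to 1037 to 1179 FPKM. Libraries also stood apart in markers of neighbouring tissue: 12 striatal neuron genes summed to 162 and 164 FPKM in KO 1 and KO 3 against 306 to 364 FPKM in the other 4 libraries, and 9 choroid plexus and ependymal genes to 156 FPKM in WT 1 and 320 FPKM in KO 3 against 8.31 to 10.8 FPKM elsewhere. Most of this sum was *Ttr* (150 FPKM in WT 1 and 310 FPKM in KO 3): the other 8 genes summed to 6.54 FPKM in WT 1 and 10.2 FPKM in KO 3, against 5.35 to 5.67 FPKM in the other 4 libraries.

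The promoters of the members that the results turn on are shown first, as 300-base windows from 250 bases before to 50 bases after the gene start (RefSeq, GRCm38.p6, the assembly behind the mm10 coordinates of the table). *Col4a1* and *Col4a2*, the chains of the main type IV collagen, start 21 bases apart on opposite strands, and their windows share 78 bases, printed in capitals in each. They are shown because these genes were the most highly expressed members and kept the most even ratio among the paired type IV genes.
Col4a1, chr8:11312777-11313076, minus strand: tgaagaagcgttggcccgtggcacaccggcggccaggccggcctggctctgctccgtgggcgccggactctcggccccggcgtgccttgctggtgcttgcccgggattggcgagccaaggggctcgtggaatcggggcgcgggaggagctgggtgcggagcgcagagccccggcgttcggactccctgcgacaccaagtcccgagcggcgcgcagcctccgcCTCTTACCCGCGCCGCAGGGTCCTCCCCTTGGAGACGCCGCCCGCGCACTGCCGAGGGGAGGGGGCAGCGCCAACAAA
Col4a2, chr8:11312555-11312854, plus strand: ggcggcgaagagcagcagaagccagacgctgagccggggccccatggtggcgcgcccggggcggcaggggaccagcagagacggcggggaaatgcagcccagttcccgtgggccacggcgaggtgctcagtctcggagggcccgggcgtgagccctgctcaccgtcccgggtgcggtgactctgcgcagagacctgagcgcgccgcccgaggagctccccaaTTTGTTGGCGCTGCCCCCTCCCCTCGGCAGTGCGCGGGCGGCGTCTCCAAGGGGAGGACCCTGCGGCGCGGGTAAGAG

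*Col5a1* and *Col24a1*, fibrillar collagens, and *Col6a1*, a beaded filament collagen, are shown because they had the smallest p-values for title number among the members. Here the capitals mark matches to the motifs searched.
Col5a1, chr2:27886175-27886474, plus strand: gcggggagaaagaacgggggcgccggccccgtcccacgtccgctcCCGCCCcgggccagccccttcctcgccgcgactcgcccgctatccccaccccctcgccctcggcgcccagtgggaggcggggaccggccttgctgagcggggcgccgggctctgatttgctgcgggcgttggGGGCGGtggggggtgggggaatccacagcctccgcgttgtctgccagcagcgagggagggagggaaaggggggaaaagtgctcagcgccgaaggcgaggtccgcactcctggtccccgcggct
Col24a1, chr3:145292222-145292521, plus strand: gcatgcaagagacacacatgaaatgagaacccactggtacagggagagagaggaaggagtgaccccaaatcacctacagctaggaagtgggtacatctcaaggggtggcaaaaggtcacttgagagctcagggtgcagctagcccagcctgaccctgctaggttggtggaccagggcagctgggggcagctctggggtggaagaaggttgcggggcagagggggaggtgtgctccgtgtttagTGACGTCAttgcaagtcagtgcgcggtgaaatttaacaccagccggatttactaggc
Col6a1, chr10:76725995-76726294, minus strand: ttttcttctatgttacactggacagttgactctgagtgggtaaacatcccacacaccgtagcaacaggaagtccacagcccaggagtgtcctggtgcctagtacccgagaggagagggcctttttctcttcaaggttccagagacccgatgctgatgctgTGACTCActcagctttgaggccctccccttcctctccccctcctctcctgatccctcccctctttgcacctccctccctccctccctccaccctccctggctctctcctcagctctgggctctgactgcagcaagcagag

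Both strands were searched for 5 motifs: the CCAAT box, the GC box written as GGGCGG, the TATA box written as TATAAA, the cyclic AMP response element written as TGACGTCA, and the AP-1 element written as TGANTCA. A window was found for 38 of the 52 members. GGGCGG occurred in 24 of the 38 (63.2%), against 35.7% of all 32851 windows, and the members' median GC content was 60.0% against 52.7%. CCAAT occurred in 13 members (37.4% of all windows) and TATAAA in 4 (13.6% of all windows). *Col5a1* held GGGCGG at 205 bases (other strand) and 73 bases before its start. TGACGTCA was found in 1 member, *Col24a1*, 7 bases before its start, and in 1.79% of all windows. TGANTCA was found in 1 member, *Col6a1*, as TGACTCA 90 bases before its start, and in 7.81% of all windows. The 3 genes that varied together thus shared none of these motifs across all 3 windows, and a match describes letters, not a bound site.

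Basement membrane collagens and laminins, 19 genes, made up 44.0% to 49.8% of the members' summed FPKM in each library. Of the 52 members, 4 averaged 10 FPKM or more over the 6 libraries, 24 lay between 1 and 10 FPKM, 20 between 0.1 and 1 FPKM and 4 below 0.1 FPKM; none was at 0 in any library. The 4 at the top were *Col4a1* (mean 14.8 FPKM), *Col4a2* (12.5 FPKM), *Col9a3* (11.0 FPKM), a chain of the FACIT collagen IX, and *Col6a1* (10.3 FPKM). Laminins were led by *Lamc1*, the gamma chain of most laminins, at a mean of 7.33 FPKM, followed by the beta chains *Lamb1* (5.13 FPKM) and *Lamb2* (4.36 FPKM). The 8 fibrillar members summed to 7.70 to 15.8 FPKM per library and the 8 basement membrane collagens to 25.7 to 38.0 FPKM, with the 11 laminins at 24.3 to 29.3 FPKM. Only genes with a mean of at least 1 FPKM were tested, which kept 28 members; the least covered of them had 82 reads in a library.

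**Figure D1:**
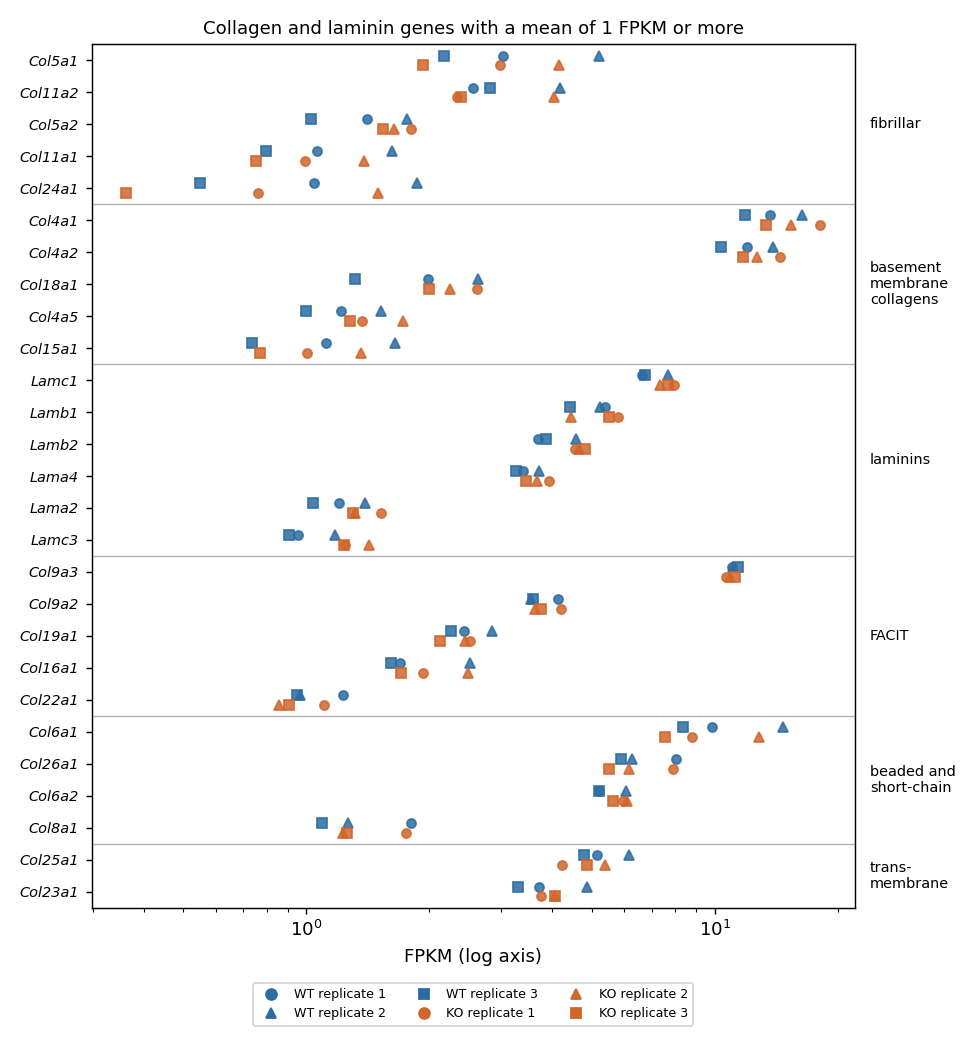
FPKM (log axis) of 27 of the 28 tested members in each of the 6 libraries, grouped by class and ordered by mean level; blue is WT and orange KO, and circles, triangles and squares are title numbers 1, 2 and 3. *Col4a1* and *Col4a2* lead the basement membrane collagens, and the libraries of *Col5a1* and *Col24a1* lie farther apart than those of *Col9a3*.

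No member passed the test for a change with the knockout. Of 28 tested members, 0 passed an adjusted p of 0.05 in limma, against 1 of 12863 genes (0.00777%), which was *Chrdl1*; adjusted p was 0.9999 for each member. At an unadjusted p of 0.05 there were also 0 members, against 0.63% of all genes, and voom on reads recovered from the FPKM values called 0 members as well. With the title number added to the limma fit as a block (a term for each number), 5 members had an unadjusted p under 0.05. The share of all genes was then 3.91%, and 0 members were called. The median log2 fold change of the 28 members was 0.04, beside 0.01 for all tested genes. A difference of log2(FPKM + 1) understates the change of a gene near 1 FPKM. FPKM values of the members are therefore given too, with KO over WT ratios for *Lamc3* only. The count of 0 does not show that the levels were equal: 95% intervals reached down to -0.83 in *Col24a1* and up to 0.54 in *Col18a1*. Intervals are from the fit without the block unless the block is named, so they include the spread between title numbers.

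The direction of the differences was not the same across classes. All 7 tested laminins and 4 of 5 tested basement membrane collagens had a higher mean in KO (medians 0.11 and 0.13), whereas 4 of 5 tested fibrillar collagens had a lower one (median -0.10). Beside this and the later counts of direction, 6921 of all 12863 tested genes had a higher mean in KO. The genes of a list share the same 6 libraries, so their directions are not independent. The FACIT group (2 of 5 higher, median -0.03), the beaded, anchoring and short-chain group (2 of 4 higher, median -0.01) and the transmembrane group (1 of 2 higher, median -0.06) lay between. In each library, summed fibrillar FPKM stood at 17.7%, 24.4% and 15.8% of summed basement membrane FPKM in WT 1, 2 and 3 and at 14.5%, 22.6% and 13.1% in KO 1, 2 and 3 (19.3 ± 4.51 against 16.7 ± 5.16, mean ± SD, n = 3 each). The KO value was the lower one within every number, but the genotypes overlapped widely, since both libraries numbered 2 were above the other 4. Fibrillar values here leave out *Col1a1*, *Col1a2* and *Col3a1*. The untested fibrillar members *Col2a1*, *Col5a3* and *Col27a1*, all at low levels, had a higher mean in KO. Whether the classes differed from each other was not tested.

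Within numbers the class pattern was uneven. Laminins had a median difference of 0.20 within number 1 and 0.23 within number 3 but -0.01 within number 2, and basement membrane collagens 0.25, 0.16 and -0.12 in the same order. Fibrillar collagens were at -0.05, -0.12 and -0.13. Number 2 is also the pair whose striatal marker sums were alike (342 FPKM in WT and 360 FPKM in KO); in numbers 1 and 3 these sums were 364 against 162 and 306 against 164 FPKM.

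**Figure D2:**
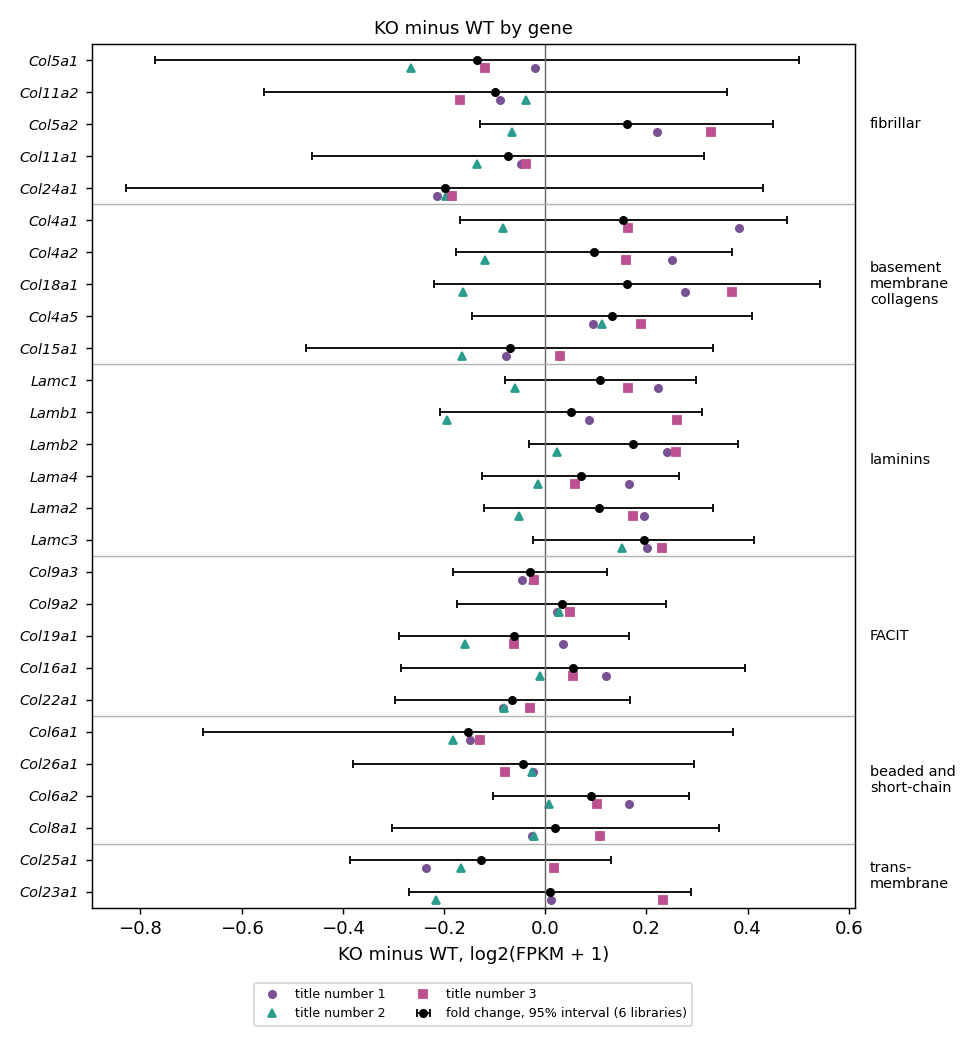
KO minus WT difference in log2(FPKM + 1) of 27 of the 28 tested members by class. Bars are the 95% interval from limma without the title number as a block, and small symbols the difference within each title number. The vertical line is 0. The 6 laminin estimates drawn lie right of 0, 4 of the 5 fibrillar estimates lie left of it, and every interval crosses it.

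Among laminins, *Lamc3* (chr2:31887281-31946535, plus strand), a gamma chain whose loss in people disturbs the folding of the occipital cortex, was the one member whose KO and WT libraries did not overlap, a feature of 2.95% of all tested genes. *Lamc3* was at 0.954, 1.18 and 0.906 FPKM in WT 1, 2 and 3 and at 1.25, 1.42 and 1.24 FPKM in KO 1, 2 and 3. The KO value was 1.31, 1.21 and 1.37 times the WT value within numbers 1, 2 and 3, and the log2 difference was 0.19 (95% interval -0.02 to 0.41, limma unadjusted p = 0.0732). On the other strand of *Lamc3*, *Gm13441* overlaps 382 exon bases in GENCODE vM21, so the 2 transcripts may share reads.

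*Lamb2*, the beta chain best known from the neuromuscular junction and the kidney filter, was at 3.70, 4.56 and 3.87 FPKM in WT and at 4.55, 4.65 and 4.82 FPKM in KO (log2 difference 0.17, interval -0.03 to 0.38). Only WT 2 reached the KO range, and WT 2 was above KO 1 by less than 0.01 FPKM.

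*Lamc1* read 6.64, 7.68 and 6.73 FPKM in WT and 7.92, 7.33 and 7.66 FPKM in KO (0.11, interval -0.08 to 0.30). WT 2 lay inside the KO range, and the other WT libraries lay below it. The vascular alpha chain *Lama4* was 3.46 ± 0.23 FPKM in WT and 3.68 ± 0.25 FPKM in KO (SD, n = 3 each), *Lama2*, mutated in a congenital muscular dystrophy, 1.21 ± 0.18 and 1.38 ± 0.12 FPKM, and *Lamb1* 5.02 ± 0.52 and 5.24 ± 0.71 FPKM. Each of these 3 overlapped between genotypes, and each was lower in KO than in WT within number 2. The 4 laminins below the tested range averaged 0.38 to 0.65 FPKM, the highest being *Lama5*, the other main vascular alpha chain.

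For the type IV collagens, *Col4a1* was at 13.6, 16.3 and 11.8 FPKM in WT 1, 2 and 3 and at 18.1, 15.4 and 13.4 FPKM in KO 1, 2 and 3. *Col4a2* was at 12.0, 13.9 and 10.4 FPKM in WT and at 14.4, 12.7 and 11.7 FPKM in KO. Both genes were higher in KO within numbers 1 and 3 and lower within number 2, and the genotypes overlapped (log2 differences 0.15, interval -0.17 to 0.48, and 0.10). Their ratio moved little, from 1.14 to 1.25 over the 6 libraries. The other head-to-head pairs varied more: *Col4a5* over *Col4a6*, whose starts are 1343 bases apart, ranged from 3.30 to 5.26, and *Col4a3* over *Col4a4*, 72 bases apart, from 0.76 to 2.05 on 10 to 36 reads each. *Col4a5*, the chain altered in X-linked Alport syndrome, was higher in KO within all 3 numbers (1.25 ± 0.26 against 1.46 ± 0.24 FPKM), but the genotypes overlapped.

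The multiplexins *Col18a1* and *Col15a1*, vascular basement membrane collagens whose C-terminal fragments include endostatin in the case of *Col18a1*, went different ways. *Col18a1* was 1.98 ± 0.66 FPKM in WT and 2.28 ± 0.31 FPKM in KO. *Col15a1* was 1.17 ± 0.46 and 1.05 ± 0.30 FPKM and was the one basement membrane member tested whose mean was lower in KO. Neither difference exceeded the spread between libraries.

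Of the 8 fibrillar collagens, 5 reached a mean of 1 FPKM, as did 5 of 8 basement membrane collagens and 7 of 11 laminins. *Col5a1*, a chain of the type V collagen that limits fibril diameter, was at 3.03, 5.20 and 2.18 FPKM in WT 1, 2 and 3 and at 2.98, 4.16 and 1.93 FPKM in KO 1, 2 and 3. *Col24a1*, a fibrillar chain described in developing bone and cornea, was at 1.04, 1.86 and 0.548 FPKM in WT and at 0.761, 1.50 and 0.363 FPKM in KO. In both genes number 2 was the highest and number 3 the lowest in each genotype, and KO was below WT within each number.

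*Col11a2* and *Col11a1*, chains of the cartilage collagen XI, had the same sign within each number: *Col11a2* was at 2.55, 4.17 and 2.81 FPKM in WT and 2.34, 4.03 and 2.39 FPKM in KO. *Col11a1* was at 1.06, 1.62 and 0.799 FPKM in WT and 0.994, 1.39 and 0.752 FPKM in KO. The genotypes overlapped in all 4 genes, and the log2 differences were -0.13 (interval -0.77 to 0.50) for *Col5a1*, -0.20 (-0.83 to 0.43) for *Col24a1*, -0.10 for *Col11a2* and -0.07 for *Col11a1*. *Col5a2*, the partner chain of *Col5a1*, did not follow: it was at 1.41, 1.76 and 1.03 FPKM in WT and 1.81, 1.64 and 1.54 FPKM in KO (0.16). The other 3 fibrillar members, *Col2a1*, *Col5a3* and *Col27a1*, averaged 0.11, 0.33 and 0.41 FPKM and were not tested. Their means were higher in KO (0.12, 0.34 and 0.42 FPKM) than in WT (0.09, 0.31 and 0.39 FPKM), on 13 to 112 reads per library. The direction of the tested fibrillar genes thus did not extend to them.

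The count of lower fibrillar collagens rested on single libraries when pairs were broken. It went from 4 to 0 without WT 2 and to 1 without KO 3, while within the 3 numbers the same 4 genes were lower each time. Of the 28 tested members, 8 were lower in KO within 3 of 3 numbers and 6 were higher in 3 of 3; the background was 9.59% and 12.3% of tested genes. The 8 were *Col5a1*, *Col11a1*, *Col11a2*, *Col24a1*, *Col6a1*, *Col9a3*, *Col22a1* and *Col26a1*, and the 6 included *Lamb2*, *Lamc3*, *Col4a5*, *Col6a2* and *Col9a2*. With the title number as a replicate block, 5 members had an unadjusted limma p under 0.05, against 3.91% of all genes, among them *Lamb2* (0.0378) and *Lamc3* (0.0273) on the higher side and *Col6a1* (0.0154) and *Col24a1* (0.0267) on the lower. The adjusted p of these 4 with the block was 0.9989, and none of the 5 was called.

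*Col6a1* and *Col6a2*, chains that are built into collagen VI microfilaments, did not vary in parallel. *Col6a1* was at 9.86, 14.7 and 8.35 FPKM in WT 1, 2 and 3 and at 8.81, 12.8 and 7.55 FPKM in KO 1, 2 and 3 (log2 difference -0.15, interval -0.68 to 0.37). *Col6a2* was at 5.20, 6.05 and 5.20 FPKM in WT and at 5.95, 6.09 and 5.65 FPKM in KO (0.09). *Col6a1* was thus lower and *Col6a2* higher in KO within each number, and their ratio ranged from 1.34 to 2.42, while the ratio of *Col6a2* to the low *Col6a3* stayed between 11.7 and 13.6. Whether these ratios differ by genotype was not tested.

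Collagen IX is a FACIT trimer best known from cartilage. *Col9a3* was the most even of all tested members: 11.0, 11.1 and 11.4 FPKM in WT and 10.7, 10.9 and 11.2 FPKM in KO, so that the highest library was 1.07 times the lowest. *Col9a2* was 3.75 ± 0.32 and 3.86 ± 0.30 FPKM in WT and KO. *Col16a1* (1.94 and 2.04 FPKM), *Col19a1*, made by some interneurons (2.52 and 2.36 FPKM), and *Col22a1*, of the muscle-tendon junction (1.05 and 0.96 FPKM), are the remaining tested FACIT genes, given as WT and KO means. In the short-chain group *Col26a1* was 6.73 ± 1.15 and 6.52 ± 1.23 FPKM, and *Col8a1*, of vessel walls and the cornea, 1.39 ± 0.37 and 1.41 ± 0.29 FPKM. The transmembrane *Col25a1*, a neuronal collagen also found in amyloid plaques, was 5.37 ± 0.70 and 4.82 ± 0.57 FPKM, and *Col23a1* 3.96 ± 0.81 and 3.96 ± 0.18 FPKM. Each of these 8 overlapped between genotypes.

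The title number separated some members far more than genotype did. In *Col24a1* the mean of both libraries numbered 2 was 3.69 times that of both numbered 3, in *Col5a1* 2.28 times, in *Col11a1* 1.94 times, in *Col6a1* 1.73 times and in *Col11a2* 1.58 times. A limma F test of the number with genotype in the model, added after the values had been seen, called 9 of 28 members (32.1%), close to the 30.6% of all tested genes. The called members were spread unevenly over classes: 4 of 5 fibrillar collagens (adjusted p 0.0031 for *Col5a1*, 0.0032 for *Col24a1*, 0.0059 for *Col11a2* and 0.0167 for *Col11a1*), 3 of 4 beaded, anchoring and short-chain members (*Col6a1* 0.0021, *Col26a1* 0.0097, *Col8a1* 0.0367), *Col15a1* (0.0177), *Col16a1* (0.0222), and 0 of 7 laminins. The count of 9 fell to 5 without KO 1, where the count over all tested genes fell to 2076 from 3936. It was 16 with voom on recovered reads. The share of all genes with voom is not given here, so the closeness to 30.6% is stated for the main fit only.

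Direction was one-sided for number 2. Both of its libraries lay above the other 4 in 10 of 28 members, against 19.4% of all tested genes, and below the other 4 in 0 of 28, against 25.0%. Those 10 were *Col5a1*, *Col11a1*, *Col11a2*, *Col24a1*, *Col4a5*, *Col15a1*, *Col6a1*, *Col6a2*, *Col16a1* and *Col25a1*. Both libraries numbered 3 were lowest in 9 of 28, against 20.4% of all tested genes. Of the 24 untested members, with 3 to 294 reads per library, 7 had both number 2 libraries on top. In *Col4a3* both were lowest instead (0.064 and 0.052 FPKM). The share among all untested genes is not given here. Both number 1 libraries were on top instead in 4 of 28 members, against 1807 of 12863 tested genes: *Col26a1*, *Col8a1*, *Col9a2* and *Col22a1*. *Col26a1* was at 8.05 and 7.89 FPKM there and between 5.51 and 6.28 FPKM in the other 4 libraries. What the number stands for, and so what moves with it, cannot be told apart in these labels.

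**Figure D3:**
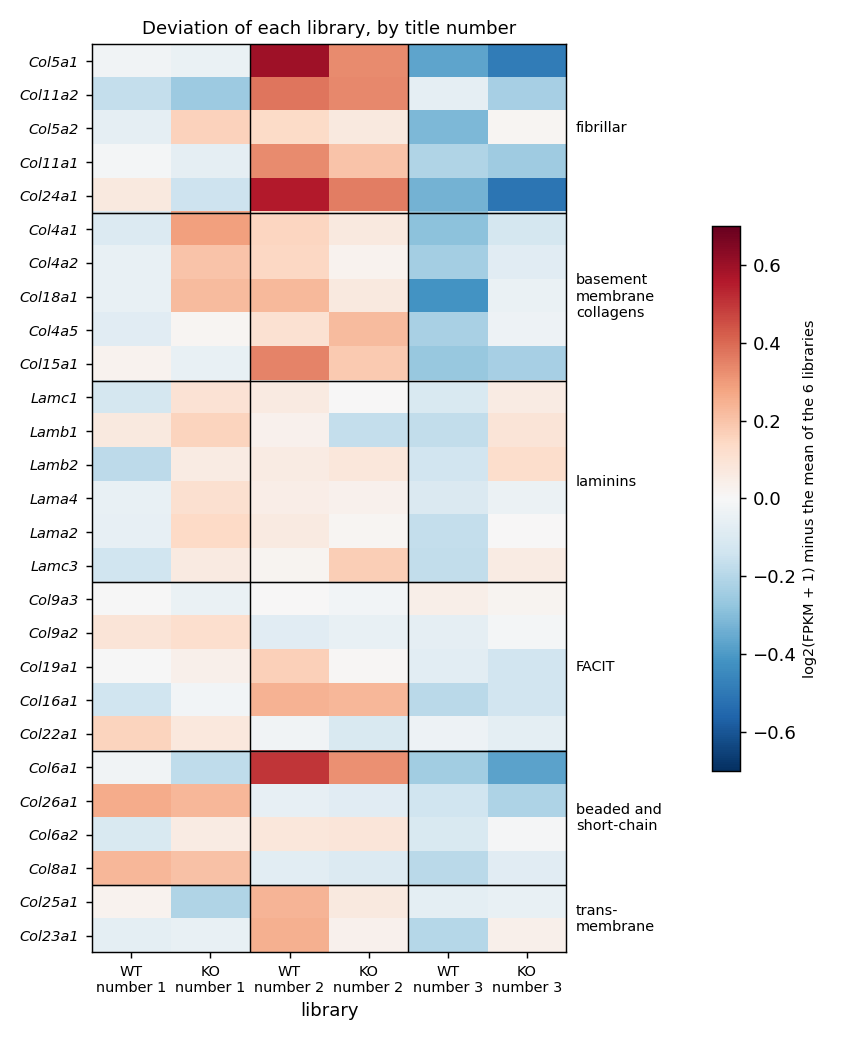
log2(FPKM + 1) of 27 of the 28 tested members in each library minus that member's mean over the 6 libraries, with libraries ordered by title number and members by class; red is above and blue below the mean. Both number 2 columns are red for *Col5a1*, *Col11a1*, *Col11a2*, *Col24a1* and *Col6a1*, and the laminins are pale.

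Markers of the vascular and meningeal cells that make many of these proteins are given beside the laminin and type IV values. Fibroblast markers of the meninges and perivascular space (14 genes) summed to 121, 135 and 142 FPKM in WT 1, 2 and 3 and to 156, 145 and 170 FPKM in KO 1, 2 and 3, and 13 of 14 had a higher mean in KO (median 0.20; *Dcn*, *Fmod* and *Osr1* at 0.25, 0.36 and 0.29). Endothelial markers summed to 131, 129 and 158 FPKM in WT and 144, 139 and 153 FPKM in KO, with 14 of 14 higher (median 0.06; *Cdh5* 0.17, *Flt1* 0.20). Pericyte and smooth muscle markers summed to 109 to 112 FPKM in WT and 111 to 120 FPKM in KO, with 8 of 11 tested higher (median 0.09; *Tagln* 0.25, *Higd1b* -0.30). No gene of these 3 lists was called by limma, with 2 fibroblast, 0 endothelial and 1 pericyte marker at an unadjusted p under 0.05, and no fibroblast marker was at 0 in any library. With the title number as a block, 6 fibroblast, 2 endothelial and 3 pericyte markers were under 0.05, against 3.91% of all genes, and 0 were called. Within number 2, where laminin and basement membrane collagen sums were lower in KO, the sums of all 3 marker lists were higher in KO, and within number 3 the endothelial sum was lower in KO while the laminin sum was higher. In whole tissue, more cells of a type cannot be told apart from more RNA per cell, and the part of these cells, of the striatal marker difference or of choroid plexus in the members' values was not tested.

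**Figure D4:**
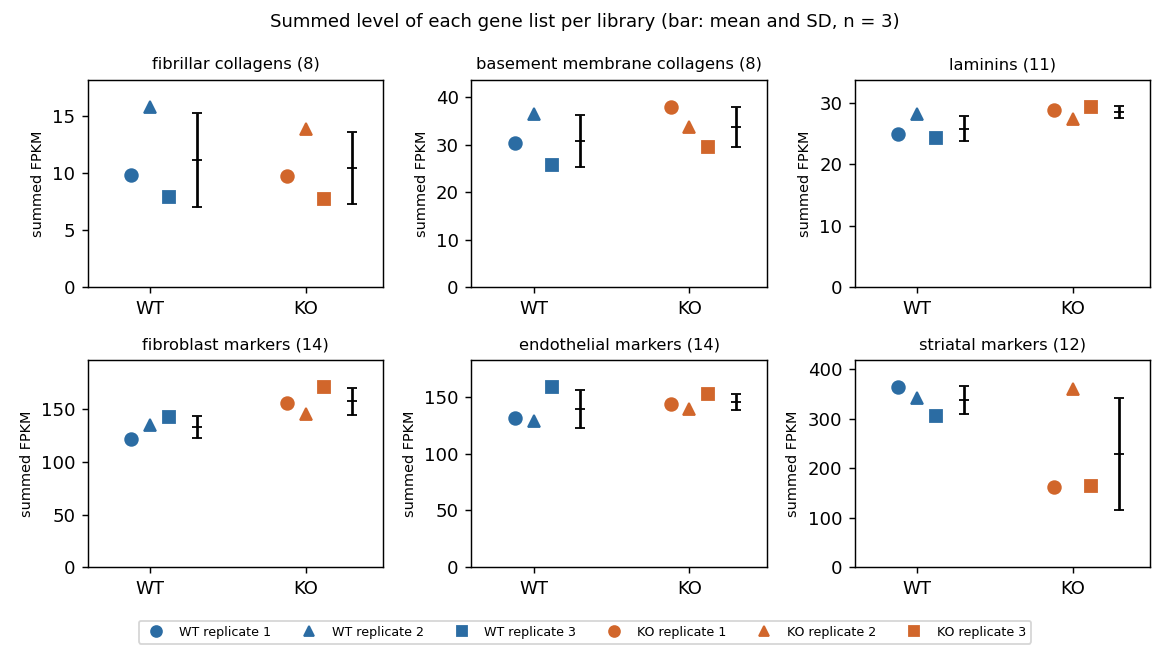
Summed FPKM per library (axes start at 0) of fibrillar collagens, basement membrane collagens, laminins and the fibroblast, endothelial and striatal marker lists, with circles, triangles and squares for title numbers 1, 2 and 3 and a bar for the mean and SD (n = 3). Laminin and basement membrane collagen sums are higher in KO within numbers 1 and 3 and slightly lower within number 2. The fibrillar sum, which leaves out *Col1a1*, *Col1a2* and *Col3a1*, is lower in KO within each number.

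The genes that work with collagens and laminins gave no limma call either, and 0 at an unadjusted p under 0.05 without the title number as a block. With the block, 2 of 13 partners, 1 of 9 receptors, 1 of 19 synthesis genes and 1 of 10 proteases and inhibitors were under 0.05. The share of all genes was then 3.91%. Of 13 partners in the basement membrane, 11 had a higher mean in KO (median 0.09); *Nid1*, the nidogen that links laminin to type IV collagen, was 5.42 ± 0.67 FPKM in WT and 6.32 ± 1.02 FPKM in KO, *Smoc1* 4.44 ± 0.19 and 5.18 ± 0.65 FPKM, and *Fbln1* 1.99 ± 0.16 and 2.38 ± 0.26 FPKM. Of 9 tested receptors, 8 had a higher mean (median 0.08): *Itga3*, a laminin-binding integrin subunit, was at 2.97, 3.09 and 2.97 FPKM in WT and at 3.56, 3.19 and 3.42 FPKM in KO, without overlap. *Ddr2*, a collagen receptor kinase, also did not overlap (1.04 ± 0.06 and 1.21 ± 0.08 FPKM), and *Bcam*, a receptor for laminin alpha 5, was 3.66 ± 0.24 and 4.19 ± 0.41 FPKM. Genotypes did not overlap in 2 of 9 tested receptors, 0 of 13 partners and 0 of 19 synthesis genes. The same held for 1 of 10 proteases and inhibitors (*Timp3*), against 2.95% of all tested genes. The genes named from each list were those of smallest unadjusted limma p. Collagen synthesis and crosslinking genes were split, 10 of 19 higher (median 0.01). *P3h3*, a prolyl 3-hydroxylase of collagen, followed the pattern of most tested fibrillar genes, lower in KO and highest in number 2. It was at 3.57, 5.11 and 2.99 FPKM in WT and 3.04, 3.87 and 2.37 FPKM in KO. This was not particular to *P3h3*: other synthesis and partner genes were also lower in KO within each number and highest in number 2. The procollagen protease *Adamts2* and the enhancer *Pcolce* differed by 0.13 and 0.08. Among matrix proteases and inhibitors, 7 of 10 had a higher mean (median 0.04), with *Adamts1* at 2.15 ± 0.28 and 2.66 ± 0.23 FPKM, the inhibitor *Timp3* at 17.5 ± 0.05 and 19.0 ± 1.56 FPKM, and the collagen-degrading *Ctsk* at 7.51 ± 1.16 and 6.99 ± 0.21 FPKM.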

How the data were processed

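Messenger RNA of 6 libraries was measured, 3 WT and 3 KO. The authors deposited 1 table of FPKM per RefSeq gene, made with HOMER on mm10 from exon reads with 1 entry kept per gene, per the file headers; FastQC, STAR 2.4.0k and HOMER 4.8.3 come from the submitters' processing notes. The header's command names no strand setting. Genes outside the members overlap exons of 7 of 28 tested members on the other strand in GENCODE vM21. These are *Col5a1*, *Col4a2*, *Col15a1*, *Lama2*, *Lamc3*, *Col9a3* and *Col22a1*, and their values are uncertain by that share. Overlap between members was not part of this count. The gene models of *Col4a1* and *Col4a2*, on opposite strands, share 22 bases. The command lists 12 libraries; those without a column here are not analysed here.

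Whole reads were recovered from the deposited FPKM values and gene lengths: 100.0% of 4897 to 7147 low values per library came out whole within 0.1 read. Depth was 38.2, 27.5 and 34.0 M reads in WT 1, 2 and 3 and 26.4, 22.7 and 31.9 M in KO 1, 2 and 3; 3 reads in a 6000-base gene equal 0.0131 to 0.0221 FPKM.

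The 12863 genes that averaged at least 1 FPKM were fitted on log2(FPKM + 1) with limma 3.58.1 (R 4.3.3), with an intensity trend, 2-sided, and Benjamini-Hochberg adjustment over all of them; a gene was called at an adjusted p under 0.05. Same-numbered libraries deviated together (correlations of 0.43, 0.71 and 0.67 across genes; -0.61 to -0.06 for other KO and WT libraries), so a fit with the number as a block was compared. No libraries were duplicates. Alternatives were pseudocount 0.1, no filter or a mean of 0.1 FPKM, median-ratio scaling, voom on recovered reads, and leaving libraries out. The fits were also run on simulated data, but the outcome is not given here and no result rests on it. Named genes were *Chrdl1*, all tested members except 1 that is not reported here, all fibrillar members, the highest untested member of each class, head-to-head partners, and up to 3 tested genes of smallest unadjusted p per companion or marker list; *Col6a3* was added after its values were seen. The members and lists were chosen with earlier results of these data known. Promoter windows came from RefSeq (GRCm38.p6).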

Additional observations from a re-analysis of the deposited data

How the results depend on the processing

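No collagen or laminin gene was called under any of the 16 alternatives, and 799 of 832 gene-by-alternative values kept their direction and side of the threshold, over the 28 tested members and 24 named companion and marker genes. All 33 reversals came from leaving out libraries. The replicate block left 1 gene called (*Chrdl1*) and changed no member's call. Genes called over the whole table went from 1 to 2 with pseudocount 0.1, 6 with no filter and 2 with voom and the replicate block, and ranged from 0 to 4 when libraries were left out. *Chrdl1* ranged from -1.99 to -1.90, with adjusted p of 0.244 and 0.0906 without title number 1 or 2. The median of all members ranged from -0.020 to 0.12 when libraries were left out. The fibrillar median, -0.10, was -0.018 with no filter or a mean of 0.1 FPKM (more genes tested), -0.15 with voom, with or without the block, and -0.29 to 0.074 when libraries were left out; the count of lower fibrillar genes then ranged from 0 to 4. Laminins higher in KO stayed at 6 or 7 of 7 and basement membrane collagens at 3 to 5 of 5. For the title number, 1347 genes were called with no filter and 2038 to 3923 with a library left out, against 3936. The count of all genes with voom is not given here. Of the members, 16 were called with voom and 5 to 13 with a library left out, against 9, and 5 was without KO 1. The cause was not tested. With libraries left out, the differences of genes that changed sign ranged as follows: *Col5a1* -0.35 to 0.13, *Col11a1* -0.20 to 0.074, *Col11a2* -0.29 to 0.065, *Col24a1* -0.43 to 0.031, *Col15a1* -0.22 to 0.085, *Col18a1* -0.0076 to 0.32, *Lamb1* -0.054 to 0.17, *Col9a2* -0.017 to 0.088, *Col16a1* -0.049 to 0.19, *Col19a1* -0.11 to 0.0062, *Col6a1* -0.35 to 0.059, *Col8a1* -0.079 to 0.14, *Col26a1* -0.17 to 0.075, *Col23a1* -0.10 to 0.14, *Pcolce* -0.0070 to 0.14 and *Ctsk* -0.18 to 0.017. The 24 untested members fell below the level filter and had 3 to 294 reads per library.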

Other observations

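Members below the tested level filled out the classes. *Col20a1*, a FACIT collagen, averaged 0.95 FPKM and was at 1.11 and 1.15 FPKM in the libraries numbered 2 against 0.73 to 1.03 FPKM in the others. *Col8a2*, the partner of *Col8a1* in corneal and vascular networks, was at 0.53, 0.48 and 0.33 FPKM in WT 1, 2 and 3. It was at 0.56, 0.47 and 0.75 FPKM in KO 1, 2 and 3. *Col13a1*, a transmembrane collagen of the neuromuscular junction, averaged 0.33 FPKM, and *Col4a6* 0.33 FPKM. None of the 24 untested members separated KO from WT without overlap. A higher mean in KO was found in 13 and a lower one in 11. An unadjusted p of 0.05 in the limma fit without a filter was reached by 0. The shares of all untested genes are not given here, so these counts show nothing particular to the members.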
